A study of Mus musculus with 2 samples.

Results

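Dividing T cells of mouse lung tumours are described here, as single-cell RNA libraries from Dusp2-/- (KO) and wild-type (WT) mice recorded them. A T cell was counted as dividing when its barcode held at least 3 UMIs of Mki67 and Top2a together. It also needed at least 2 UMIs of the CD3 genes Cd3d, Cd3e and Cd3g, no UMI of the B cell genes Cd79a and Cd79b, no UMI of the tumour genes Hmga2 and Rhox5, and fewer than 5 UMIs of the macrophage gene Lyz2. A UMI, or unique molecular identifier, tags 1 captured RNA molecule. Barcodes needed 200 or more genes and no more than 20% of UMIs from mitochondrial genes. The cells were thus selected on their own measured UMI counts. These conditions gave 206 of 22634 barcodes, 98 of 12744 in the KO library and 108 of 9890 in the WT library. T cells that met every condition except the one on Mki67 and Top2a, 1548 in KO and 1028 in WT, are called other T cells.

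Mki67 encodes the proliferation antigen Ki-67 and Top2a a topoisomerase that untangles sister chromosomes, and both messages accumulate from S phase to mitosis. T cells in a tumour divide after their receptor meets antigen, mainly as CD8 cytotoxic cells, conventional CD4 helper cells or Foxp3 regulatory cells, and chronic stimulation adds inhibitory receptors such as PD-1 (Pdcd1), LAG-3 and TIM-3 (Havcr2). Dusp2 encodes a nuclear phosphatase of MAP kinases whose message T cell activation induces.

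The study set tumour-infiltrating cells of LLC-bearing KO mice beside those of WT mice. LLC, the Lewis lung carcinoma, is a mouse lung cancer line. There was 1 library for each genotype, made with the 10x Genomics 3′ kit version 3.1, and no treatment is labelled. The labels give the molecule as polyA RNA for KO and total RNA for WT, while the deleted part of Dusp2, the sort, age and sex, and whether animals were pooled, are not stated. With 1 library for each genotype no difference between KO and WT could be tested against the spread between animals. Each interval is a 95% interval for counting error alone, and it does not cover the spread between cells or animals.

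The KO library held 101532711 UMIs with a median of 4754 per barcode, and the WT library 113873249 UMIs with a median of 8496. Dividing T cells were about equally deep, with a median of 10736.5 UMIs and 3330 genes in KO and 10690.5 UMIs and 3409 genes in WT. Within types the medians differed, at 9453 UMIs in KO and 11813 in WT for CD8 cells and 12268 in KO and 7572 in WT for conventional CD4 cells, which bears on counts of cells with a UMI. Other T cells had medians of 4070.5 UMIs in KO and 4883 in WT. The libraries shared 31 barcodes, and 0 of the dividing T cells were among them. Immunoglobulin RNA was spread over the KO library. Igkc, a light chain gene, had a UMI in 98.0% of KO dividing T cells and 97.7% of KO macrophages, against 5.56% of WT dividing T cells and 0.408% of WT macrophages. The condition on Cd79a and Cd79b took unequal numbers, 80 of 224 dividing CD3-positive barcodes in KO and 6 of 151 in WT. Of dividing barcodes that met the other conditions, 17 in KO and 0 in WT held more than 3 UMIs of these genes. Allowing up to 2 UMIs of these genes, a choice made after the data were seen, gave 130 dividing T cells in KO and 111 in WT.

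The genes of the gate, given as a description, were well above their limits in most cells. Mki67 and Top2a together had a median of 13 UMIs per cell in KO, from 3 to 61, and a median of 11 in WT, from 3 to 58. At the limit of 3 UMIs stood 18 KO and 23 WT cells, while 54 KO and 39 WT T cells fell just short with 2. Cd3e had a UMI in 94.9% of KO and 95.4% of WT dividing T cells. T cell genes that the gate did not use were also present. The 14 of them on the list, among them the T cell receptor chains and the kinase Lck, were all detected in both libraries and summed to 6444 CPM in KO and 6359 CPM in WT. CPM, counts per 1000000, scales the UMIs of a gene to the total of all dividing T cells of a library, or of a named type among them.

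Markers of other cells were low but not absent in dividing T cells. The 18 macrophage and monocyte markers summed to 682 CPM in KO, with a range of 0 to 47.3 UMIs per 10000 in single cells, and 749 CPM in WT, with a range of 1.03 to 43.8. The 12 B and plasma cell markers summed to 573 CPM in KO and 175 CPM in WT, where Ms4a1, Pax5, Jchain and Mzb1 were at 0. The 10 tumour and stroma markers reached 31.9 CPM in KO and 86.4 CPM in WT. The part of such cells or of their free RNA in the results was not tested. Shares of types, summed levels, counts of genes, list medians and named genes were repeated without barcodes that carried 2 UMIs of macrophage, natural killer (NK) or B cell markers. The NK markers for this were Ncr1, Klrb1c and Klre1, and dividing CD8 cells also carried Klre1.

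Dusp2 itself matched the labels in dividing T cells. It had 1 UMI in 1 of 98 KO cells, or 0.863 CPM, and 332 UMIs in 82 of 108 WT cells, or 268 CPM. The log2 ratio of KO to WT was -8.28, with an interval of -13.59 to -5.79. Tumour cells marked by Rhox5 carried a Dusp2 UMI at similar shares in both libraries, 57.9% in KO and 67.0% in WT. Of 14 other dual-specificity phosphatase genes, 5 were measured, 1 higher and 4 lower in KO, and all 5 were within 2-fold, from Dusp4 at -0.60 to Dusp10 at 0.55 on the log2 scale. Dusp16 was too low on average to be measured. It had 10 UMIs in 8 KO cells and 54 UMIs in 28 WT cells, a log2 ratio of -2.34 (-3.48 to -1.35).

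CD8 cells were the largest group of dividing T cells in both libraries, and conventional CD4 cells took a larger share in KO. A cell was counted as CD8 with a UMI of Cd8a and none of Cd4 or Foxp3, as conventional CD4 with Cd4 and neither of the others, and as Foxp3 with Foxp3 and no Cd8a. CD8 cells were 41 of the KO dividing T cells, 41.8% (interval 31.9 to 52.2), and 55 of the WT ones, 50.9% (41.1 to 60.7). The difference was -9.09 percentage points, with an interval of -22.2 to 4.49 that spans 0. Without barcodes that carried markers of other cells, which left 63 dividing T cells in KO and 51 in WT, the difference turned to 9.15 points (-8.81 to 26.1). That step can also take out CD8 cells through Klre1, which had a UMI in 17 of 41 KO and 37 of 55 WT ones.

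Conventional CD4 cells were 21 of the KO dividing cells, 21.4% (13.8 to 30.9), and 11 of the WT ones, 10.2% (5.20 to 17.5). This difference, 11.2 percentage points, had a counting interval above 0, from 1.27 to 21.4. With types read in cells thinned to 2000 UMIs, a choice made after the data were seen, it was 6.09 points (-2.15 to 14.9), and the interval spanned 0 in 4 of 12 alternatives. The share of conventional CD4 cells among all T cells differed in the same direction, 21.9% in KO and 11.9% in WT. Foxp3 cells were 13 of the KO dividing cells, 13.3% (7.26 to 21.6), and 21 of the WT ones, 19.4% (12.5 to 28.2), a difference of -6.18 percentage points with an interval of -16.2 to 4.13. It was -5.88 points (-11.2 to -0.98) with gate and types on thinned cells and -10.04 points (-17.7 to -2.86) with the types alone on thinned cells, where 2 KO and 13 WT cells were left. Among all T cells Foxp3 cells were 6.56% in KO and 11.4% in WT. Only 3 dividing cells in each library had Cd8a with Cd4 or Foxp3.

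Detection of these genes in cells that should lack them was far rarer. In macrophages with C1q genes, whose median depth was 8587 UMIs in KO and 10519 in WT, Cd8a had a UMI in 0.566% of KO and 0.898% of WT cells. Cd4 had one in 2.49% of KO and 2.98% of WT macrophages, and Foxp3 in 0.227% of KO and 0.204% of WT macrophages. Cd8b1, the gene of the second CD8 chain, was not used for the main CD8 calls. It had a UMI in 41 of 41 KO and 50 of 55 WT dividing CD8 cells, against 3 of 21 KO and 0 of 11 WT dividing conventional CD4 cells. In dividing Foxp3 cells it had one in 4 of 13 KO and 1 of 21 WT cells.

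The cells with none of Cd8a, Cd4 and Foxp3, 20 in KO (20.4%) and 18 in WT (16.7%), held most dividing gamma-delta T cells. Trdc, the constant segment of the delta receptor chain, had a UMI in 3 of these 20 KO cells and 6 of these 18 WT cells, and in 4 KO and 7 WT dividing T cells in all. Of all T cells with Trdc, 4 of 76 divided in KO, 5.26% (1.45 to 12.9), and 7 of 178 in WT. Ncr1, Klrb1c or Klre1, genes shared with NK cells, had a UMI in 4 of the 20 KO and 6 of the 18 WT cells. The beta chain segment Trbc2 had a UMI in 19 of 20 KO and 17 of 18 WT cells.

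**Figure D1:**
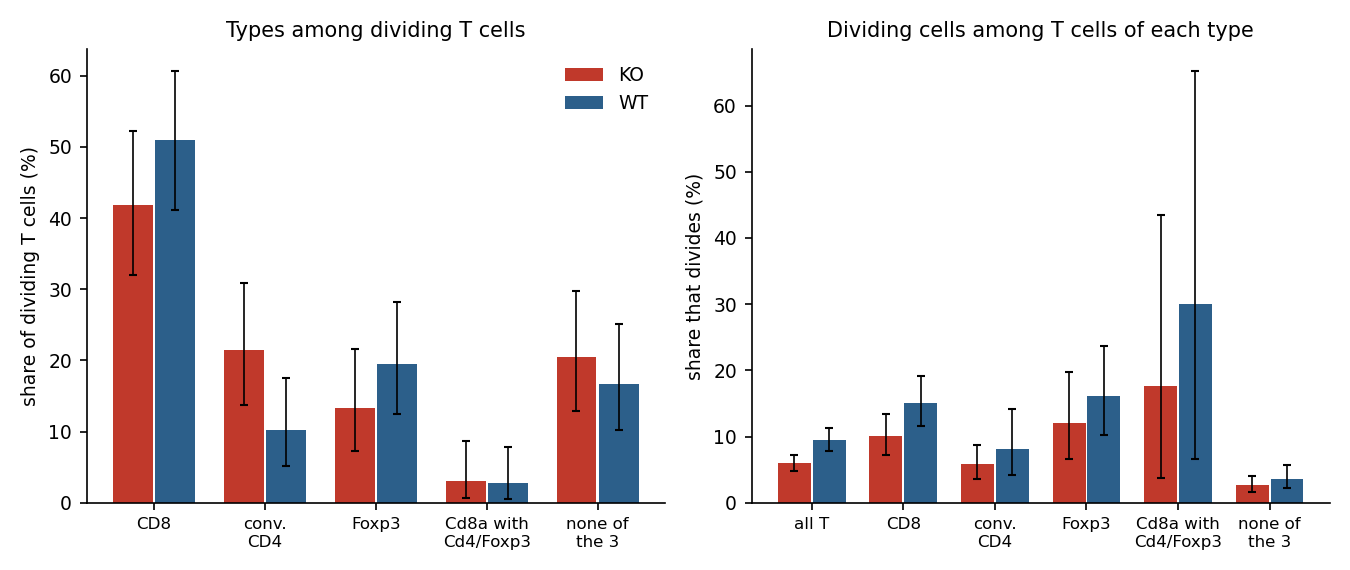
Left, share of dividing T cells that belong to each type, and right, share of the T cells of each type that divide, both in percent, with KO bars left of WT bars and exact 95% counting intervals. CD8 cells lead in both libraries, conventional CD4 cells are 21.4% of dividing cells in KO and 10.2% in WT, and the share that divides is highest in CD8 and Foxp3 cells apart from the few cells with Cd8a beside Cd4 or Foxp3.

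A smaller share of T cells was dividing in KO under the gate of 3 UMIs, 98 of 1646 or 5.95% (4.86 to 7.21), against 108 of 1136 or 9.51% (7.86 to 11.4) in WT. The log2 ratio of the shares was -0.68, with an interval of -1.05 to -0.30. It depended on how division and the T cells were counted. With the S phase and mitosis genes at 0.5% or more of the UMIs of a cell in place of Mki67 and Top2a, the share was 14.4% in KO and 14.3% in WT, a log2 ratio of 0.00501 (-0.26 to 0.27). With every cell thinned to 2000 UMIs, which left 1574 KO and 1203 WT T cells under a gate of 1 UMI of Mki67 or Top2a and 1 of the CD3 genes, it was 14.5% in KO and 17.0% in WT, a log2 ratio of -0.23 (-0.48 to 0.02). Without cells that carried the naive cell genes Ccr7 or Lef1, a choice made after the data were seen, it was 6.63% of 483 KO T cells and 8.11% of 567 WT T cells, a log2 ratio of -0.29 (-0.92 to 0.33).

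Depth entered this comparison directly, because the gate counts molecules. Of T cells below 3000 UMIs, 1.26% divided in KO and 1.09% in WT, and between 3000 and 6000 UMIs 2.73% in KO and 2.71% in WT. In deeper cells the values were lower in KO, with intervals that overlapped. Between 6000 and 12000 UMIs 8.14% of KO (5.64 to 11.3) and 13.4% of WT T cells (9.97 to 17.6) divided, and above 12000 UMIs 56.8% of 74 KO (44.7 to 68.2) and 71.9% of 64 WT T cells (59.2 to 82.4).

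Under the gate of 3 UMIs Foxp3 and CD8 cells were ahead of conventional CD4 cells in both libraries, though neighbouring intervals overlapped. Foxp3 cells divided in 12.04% of cases in KO (6.57 to 19.7) and 16.2% in WT (10.3 to 23.6). CD8 cells did so in 10.0% in KO (7.29 to 13.4) and 15.0% in WT (11.5 to 19.1), with a log2 ratio of -0.58 (-1.13 to -0.04) whose interval spanned 0 in 9 of 12 alternatives. In conventional CD4 cells it was 5.82% in KO (3.64 to 8.75) and 8.15% in WT (4.14 to 14.1). Thinned to 2000 UMIs, this order was not shared. In KO 16.3% of CD8, 14.5% of conventional CD4 and 12.8% of Foxp3 cells then divided, and in WT 21.2% of CD8, 13.8% of conventional CD4 and 24.7% of Foxp3 cells, and the log2 ratio in CD8 cells was -0.38 (-0.87 to 0.12). T cells with none of the 3 genes divided least, 2.66% in KO and 3.64% in WT, and they were also the shallowest in KO, with a median of 3380 UMIs among those not dividing, against 4892 in WT.

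At full depth dividing CD8 cells were mostly granzyme B-positive, and in KO nearly all division of CD8 cells lay in granzyme B-positive ones. Gzmb, a cytotoxic granule protease, had a UMI in 36 of 41 KO (87.8%) and 44 of 55 WT (80%) dividing CD8 cells. It had one in 45.7% of other CD8 cells in KO and 65.3% in WT, and in 1.93% of KO and 2% of WT macrophages. Of CD8 cells with Gzmb, 17.6% (12.7 to 23.6) divided in KO and 17.8% (13.3 to 23.2) in WT. Of those without it, 2.44% (0.797 to 5.60) divided in KO and 9.24% (4.71 to 15.9) in WT. Reading Gzmb in cells thinned to 2000 UMIs, 21.6% with and 2.899% without it divided in KO, against 13.7% and 16.5% in WT. So read, Gzmb had a UMI in 84.6% of dividing and 37.4% of other KO CD8 cells. In WT it had one in 46.3% of dividing and 51.8% of other CD8 cells.

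CD8 cells were also divided by detection of 2 inhibitory receptor genes. Of CD8 cells with Havcr2, 28.4% (18.5 to 40.1) divided in KO and 19.1% (11.8 to 28.6) in WT. Of those without it, 5.97% divided in KO and 13.6% in WT. Of cells with Pdcd1, 15.4% divided in KO and 17.3% in WT, and of cells without it 8.197% in KO and 9.91% in WT. Deeper cells show more genes of every kind. At 2000 UMIs, 20% of Havcr2-positive and 9.85% of Havcr2-negative KO CD8 cells divided, against 13.7% and 15.3% in WT. For Pdcd1 it was 14.5% with and 10.1% without in KO, against 16.6% and 13.3% in WT.

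In KO, CD8 cells with a gene of resting and memory T cells divided less often than those without it. Tcf7, which encodes the factor TCF-1 of naive and stem-like T cells, marked 166 KO CD8 cells of which 4.82% divided, against 13.6% of those without it. In WT 14.9% with and 15.1% without Tcf7 divided. At 2000 UMIs 6.82% with and 12.1% without it divided in KO, against 6.52% and 16.3% in WT. The value with Tcf7 was then the lower one in both libraries, with intervals that overlapped. Most dividing CD8 cells in both libraries lacked Tcf7, which had a UMI in 8 of 41 KO and 13 of 55 WT cells.

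**Figure D2:**
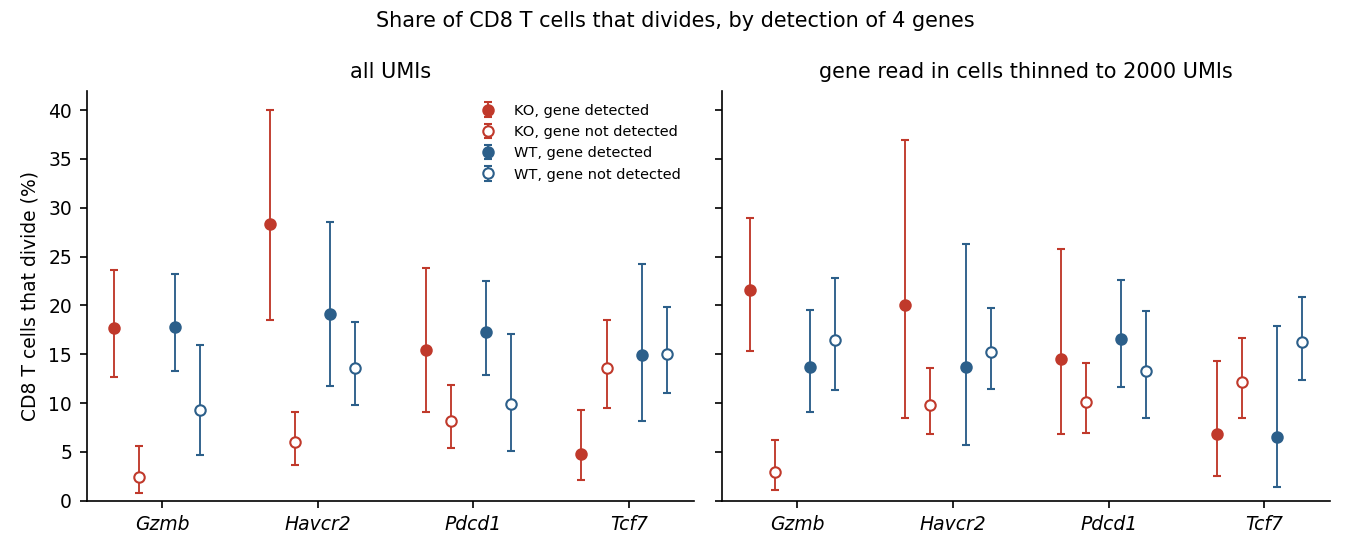
Share of CD8 T cells that divides, in percent, for cells with (filled) and without (open) a UMI of each gene, KO left of WT, with exact 95% counting intervals; the right panel reads the gene in cells thinned to 2000 UMIs. For Gzmb the right panel has 21.6% of KO cells with and 2.899% without it dividing, and 13.7% of WT cells with and 16.5% without it.

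The genes that set dividing CD8 cells apart from other CD8 cells of the same library were alike in kind in both libraries. They are a description, since the gate selects for them, and 6.35% of 4518 measured genes in KO and 4.16% of 4778 in WT were at least 2-fold higher in dividing CD8 cells. Birc5, the chromosomal passenger protein survivin, had 326 CPM in dividing and 5.85 CPM in other KO CD8 cells, and 190 CPM against 0.580 CPM in WT. Ube2c, a ubiquitin-conjugating enzyme that lets mitosis finish, had 321 against 6.92 CPM in KO and 381 against 3.48 CPM in WT. Cdca3 and Cenpf, a mitotic entry factor and a kinetochore protein, led as well, beside Ccna2 (cyclin A2), the replication factor Pclaf and the histone genes H1f5, H3c3, H2ac10 and H2ac24. H2ac10 and Ccna2 were at 0 in other WT CD8 cells. The log2 ratios of the other 8 lay between 5.06 and 7.07 in KO.

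The 10 genes named as lower in dividing CD8 cells had smaller ratios. Btg1, an antiproliferative factor, had 492 CPM in dividing and 1182 CPM in other KO CD8 cells, and 380 CPM against 867 CPM in WT. Smad7, an inhibitor of TGF-beta signalling, had 104 against 322 CPM in KO and 121 against 327 CPM in WT. Ccl5, a chemokine of memory and effector T cells, had 1209 against 2984 CPM in KO and 2720 against 5389.8 CPM in WT. Ust, Neurl3, Cmss1, Camk1d, Zeb1, Gphn and Malat1 completed the 10. Genes of naive and memory cells were lower with division more often in KO, where 11 of 14 measured were at least 2-fold lower with a median of -1.67, than in WT, where it was 3 of 12 with a median of -0.74. The background was 6.44% of 4518 genes that low in KO and 3.87% of 4778 in WT. This difference between the libraries was not tested.

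Dividing conventional CD4 and Foxp3 cells were set beside the other cells of their type in the same way, again as a description. In conventional CD4 cells 4.88% of 4528 genes in KO and 3.31% of 2053 in WT were at least 2-fold higher with division, and 7.75% in KO and 8.87% in WT at least 2-fold lower. Of the naive, memory and stem-like genes 6 of 15 in KO and 3 of 10 in WT were at least 2-fold lower there. In Foxp3 cells the higher share was 5.21% of 1825 genes in KO and 3.37% of 2403 in WT, and the lower share 17.8% in KO and 8.28% in WT. Regulatory T genes were mostly lower in dividing than in other Foxp3 cells. In KO 14 of 15 were lower, 9 at least 2-fold, with a median of -1.34. In WT 16 of 17 were lower, 3 at least 2-fold, with a median of -0.46. Of all genes measured there, 688 of 1825 in KO and 972 of 2403 in WT were above 0, with medians of -0.25 and -0.13. Dividing Foxp3 cells, called from 1 or more Foxp3 UMIs, were deeper than other Foxp3 cells. Median UMIs were 14123 against 4492 in KO and 12347 against 4845 in WT. The part of depth was not tested.

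Mitotic and replication genes have distinct promoter motifs, and 4 of the 10 genes named as higher in dividing CD8 cells and 2 S phase genes are shown with theirs. The 2 S phase genes, Rrm1 and Pola1, were chosen among those with the E2F core, so its presence in them is not a result. The sequences are from RefSeq, build GRCm38.p6, from 250 bases before to 50 bases after the gene start, on the strand of the gene. Capitals mark the CHR element TTTGAA, the CCAAT box CCAAT and the E2F core GCGGGAA on either strand, which may overlap.
Birc5, chr11:117848987-117849286, plus strand, shown because it ranks second of the 10 and holds none of the 3: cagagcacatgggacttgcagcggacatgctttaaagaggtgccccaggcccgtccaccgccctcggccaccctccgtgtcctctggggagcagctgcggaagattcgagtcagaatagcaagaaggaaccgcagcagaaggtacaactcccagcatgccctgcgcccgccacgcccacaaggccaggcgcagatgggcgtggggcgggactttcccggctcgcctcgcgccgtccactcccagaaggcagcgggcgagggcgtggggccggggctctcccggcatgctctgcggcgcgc
Ube2c, chr2:164769679-164769978, plus strand: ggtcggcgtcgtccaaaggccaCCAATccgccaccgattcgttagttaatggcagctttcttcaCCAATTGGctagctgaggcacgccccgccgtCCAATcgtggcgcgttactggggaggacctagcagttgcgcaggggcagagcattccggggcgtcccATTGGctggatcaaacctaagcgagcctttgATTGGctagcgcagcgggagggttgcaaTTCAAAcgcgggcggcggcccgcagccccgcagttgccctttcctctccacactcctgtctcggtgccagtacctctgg
Cdca3, chr6:124829926-124830225, plus strand: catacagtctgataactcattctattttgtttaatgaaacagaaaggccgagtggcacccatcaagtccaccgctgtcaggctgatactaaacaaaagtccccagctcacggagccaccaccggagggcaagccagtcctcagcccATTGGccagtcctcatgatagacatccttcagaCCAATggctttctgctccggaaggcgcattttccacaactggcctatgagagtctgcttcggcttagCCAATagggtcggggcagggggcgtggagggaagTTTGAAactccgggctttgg
Cenpf, chr1:189688037-189688336, minus strand: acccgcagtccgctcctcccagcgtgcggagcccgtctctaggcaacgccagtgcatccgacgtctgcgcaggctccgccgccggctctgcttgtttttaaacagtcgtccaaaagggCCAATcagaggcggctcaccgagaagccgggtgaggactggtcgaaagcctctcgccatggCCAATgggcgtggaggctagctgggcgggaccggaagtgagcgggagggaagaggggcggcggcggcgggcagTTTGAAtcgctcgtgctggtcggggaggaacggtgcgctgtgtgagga
Rrm1, chr7:102441445-102441744, plus strand, a ribonucleotide reductase subunit: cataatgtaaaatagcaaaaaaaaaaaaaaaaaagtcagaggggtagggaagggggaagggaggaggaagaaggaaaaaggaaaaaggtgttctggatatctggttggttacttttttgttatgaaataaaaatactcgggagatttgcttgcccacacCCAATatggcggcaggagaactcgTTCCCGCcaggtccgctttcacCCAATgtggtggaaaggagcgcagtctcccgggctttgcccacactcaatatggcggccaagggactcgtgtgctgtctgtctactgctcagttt
Pola1, chrX:93632106-93632405, minus strand, the catalytic subunit of DNA polymerase alpha: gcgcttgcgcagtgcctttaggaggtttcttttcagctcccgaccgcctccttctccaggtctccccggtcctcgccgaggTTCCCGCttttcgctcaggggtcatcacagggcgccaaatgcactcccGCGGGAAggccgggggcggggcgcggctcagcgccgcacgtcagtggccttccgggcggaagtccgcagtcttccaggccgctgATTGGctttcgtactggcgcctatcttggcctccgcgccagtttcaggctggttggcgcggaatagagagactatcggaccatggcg

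The motifs divided the cell cycle lists. Of 45 promoters found for the 52 genes of the G2 and mitosis list, 30 held the CHR element, 66.7%, against 18.1% of all 27025 promoters. Of 31 promoters found for the 43 S phase genes, 5 did, 16.1%. The E2F core was in 14 of the 31 S phase promoters, 45.2%, and in 0 of the 45 G2 and mitosis promoters, against 4.66% of all. The CCAAT box was in 71.0% of S phase, 75.6% of G2 and mitosis and 37.9% of all promoters. Genes of the inhibitory receptor list held the CHR element in 2 of 16 promoters and the E2F core in 0.

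Cell cycle genes beyond the gate were higher per UMI in KO dividing T cells. The S phase list, without the gate genes, summed to 5278 CPM in KO and 4306 CPM in WT, a log2 ratio of 0.29 (0.24 to 0.35). The G2 and mitosis list summed to 10255 CPM in KO and 7912 CPM in WT, a log2 ratio of 0.37 (0.34 to 0.41). With Mki67 and Top2a at 5 UMIs or more these log2 ratios were 0.16 and 0.23. In single cells the median of the G2 and mitosis list was 106 UMIs per 10000 in KO, from 11.6 to 299, and 65.8 in WT, from 11.3 to 190. The S phase list had a median of 50.5 in KO, from 2.50 to 118, and 36.2 in WT, from 4.49 to 105, so the libraries overlapped over most of their range.

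The S phase list exceeded the G2 and mitosis list in 22 of 98 KO (22.4%, interval 14.6 to 32.0) and 26 of 108 WT dividing T cells (24.1%, 16.4 to 33.3). In CD8 cells this was 6 of 41 in KO and 17 of 55 in WT, and in Foxp3 cells 5 of 13 in KO and 4 of 21 in WT. Other T cells had medians of 10.3 for the S phase and 19.4 for the G2 and mitosis list in KO, and 10.6 and 20.9 in WT.

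**Figure D3:**
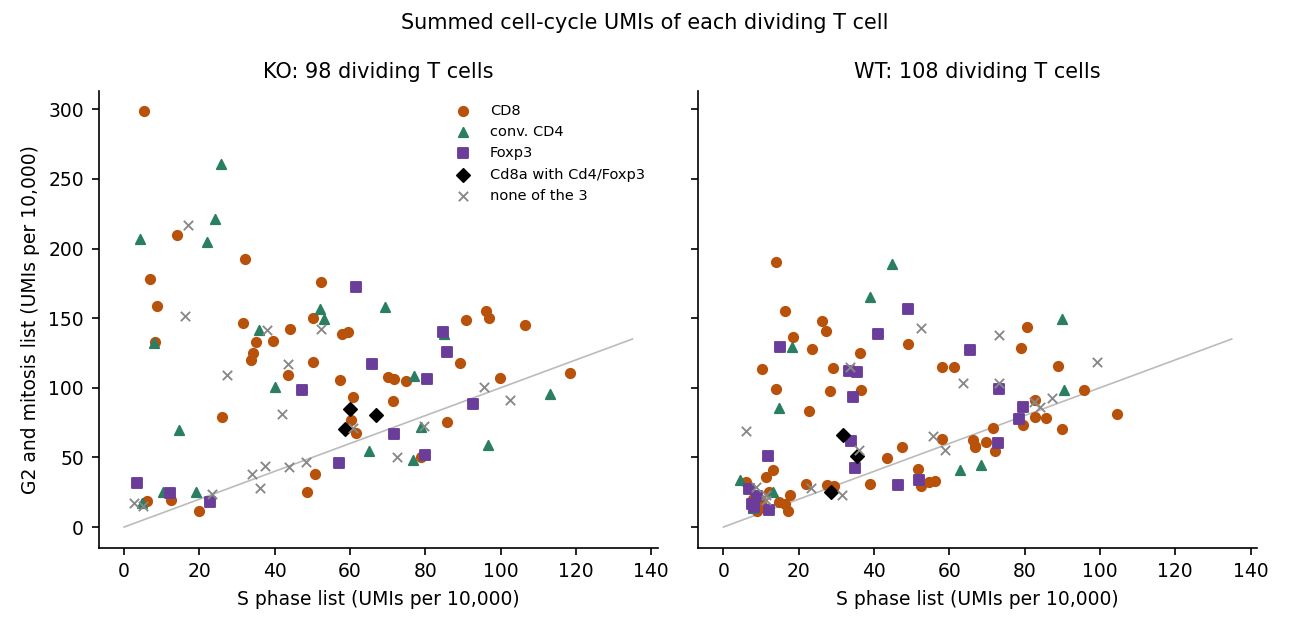
Each point is a dividing T cell, with its UMIs of the S phase list (x) and of the G2 and mitosis list (y) per 10000 UMIs, KO left and WT right, by type; the line marks equal sums. Medians of the G2 and mitosis list are 106 in KO and 65.8 in WT.

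Across all dividing T cells 4393 genes were measured, that is had at least 30 CPM on average and 50 UMIs in 1 library. Of these, 47 (1.07%) were at least 2-fold higher in KO and 176 (4.01%) at least 2-fold lower, with the counting interval off 0. With types weighted alike 75 were higher, without barcodes that carried markers of other cells 98 were lower, and at a minimum of 100 CPM 13 were higher and 53 lower. These shares are the background for the lists that follow, together with 44.1% of genes above and the rest below a log2 ratio of 0 and a median of -0.06. Beside the genes named by rule and the ends of each list, Dusp16, Ccnb1, Entpd1, Tnfrsf9, Il2rb, Socs3, Nr4a2 and Prf1 were picked after their values were seen.

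Among cell cycle genes, 30 of 35 measured S phase genes were above 0, with a median of 0.25, and 33 of 40 G2 and mitosis genes, with a median of 0.37. Of the S phase genes 2 and of the G2 and mitosis genes 1 were at least 2-fold higher, and 0 were 2-fold lower. E2f8, a repressor of E2F targets, had 57 UMIs in KO and 23 in WT, a log2 ratio of 1.404 (0.68 to 2.17). Cdc20, which activates the anaphase-promoting complex, had 62.1 CPM in KO and 21.8 CPM in WT, a log2 ratio of 1.51 (0.85 to 2.21). Cenpa, the centromeric histone, was lower, with 295 CPM in KO and 406 CPM in WT and a log2 ratio of -0.46 (-0.66 to -0.26).

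Nucleotide synthesis genes ran in the same direction, with 14 of 14 measured above 0 and a median of 0.42, though 0 reached 2-fold. The lists share genes, so their counts are not independent, and Rrm2 was on this list and the S phase list. Rrm2, the regulated subunit of ribonucleotide reductase, had 311 CPM in KO and 162 CPM in WT, a log2 ratio of 0.95 (0.69 to 1.20). In other T cells, 13 of the 14 were above 0 as well, with a median of 0.19, beside 18 of the 35 S phase genes and 24 of the 40 G2 and mitosis genes.

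Of 22 measured cyclins, their kinases, inhibitors and E2F factors 17 were above 0, 2 at least 2-fold higher and 1 at least 2-fold lower, with a median of 0.29. The highest of them was E2f8, which the S phase list also held. Ccnb1 (cyclin B1) had 58.7 CPM in KO and 25.9 CPM in WT, a log2 ratio of 1.18. Ccnd3 (cyclin D3) had 174 CPM in KO and 136 CPM in WT, while Ccnd2 (cyclin D2) had 137 CPM in KO and 184 CPM in WT. The lowest ratio belonged to Rbl2, the pocket protein p130 of resting cells, with 32.8 CPM in KO and 116 CPM in WT and a log2 ratio of -1.83 (-2.38 to -1.30). Myc had 20 UMIs in KO and 22 in WT, too few to be measured under the limits.

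**Figure D4:**
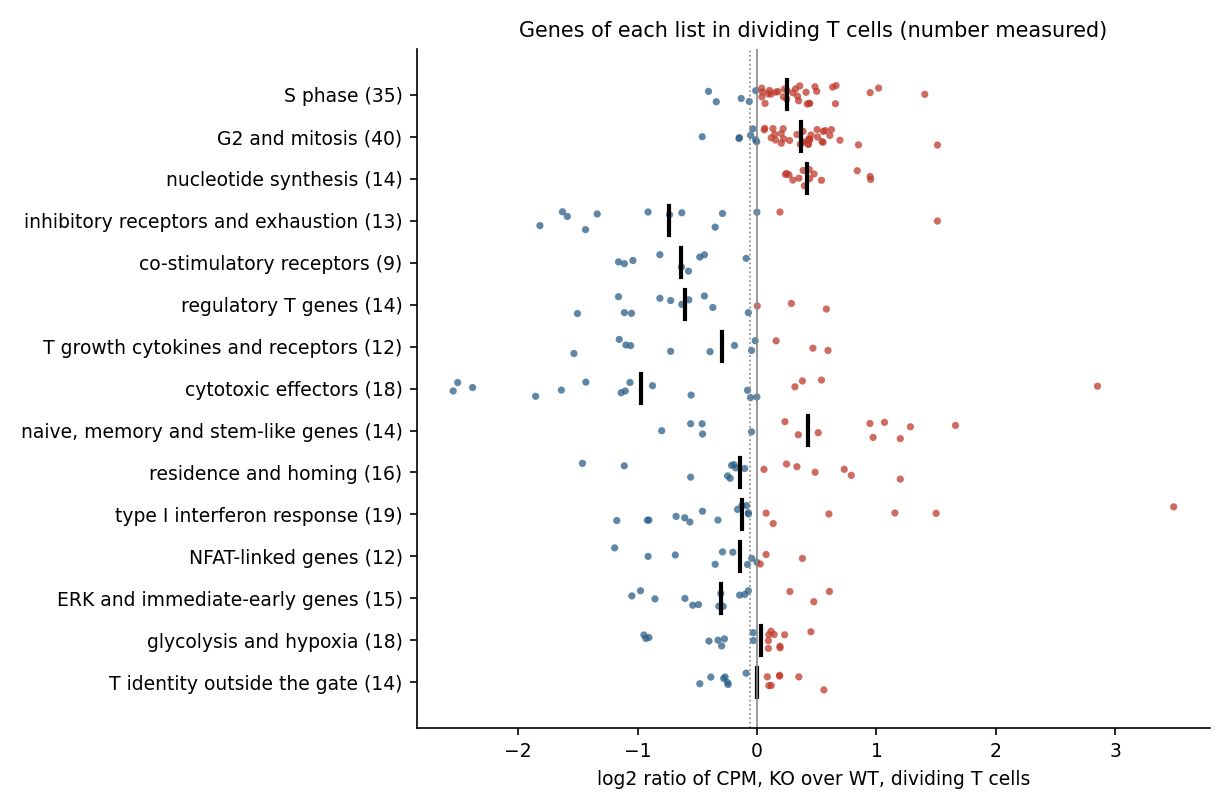
Log2 ratio of CPM, KO over WT, in all dividing T cells; each point is a measured gene of the list named at the left with the number measured, black bars are list medians, and the dotted line is the median of all measured genes (-0.06). The medians of the cell cycle and nucleotide synthesis lists lie above 0, and those of the inhibitory, co-stimulatory and cytotoxic lists below it.

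Inhibitory receptors and genes of exhausted T cells were mostly lower in KO dividing T cells, with 11 of 13 measured below 0, 5 of them at least 2-fold, and a median of -0.73. Pdcd1 had 142 UMIs in 29 of 98 KO cells, or 123 CPM, and 456 UMIs in 73 of 108 WT cells, or 368 CPM. Its log2 ratio was -1.59 (-1.87 to -1.31). Lag3 had 38.8 CPM in KO and 105 CPM in WT, and Ctla4 447 CPM in KO and 692 CPM in WT. Entpd1, the ectoenzyme CD39, and Prdm1, which encodes BLIMP-1, were lower as well, with log2 ratios of -1.63 and -1.82. Eomes, a transcription factor of effector and exhausted CD8 cells, was at least 2-fold higher, with 64 UMIs in 19 KO cells and 24 UMIs in 16 WT cells and a log2 ratio of 1.51 (0.81 to 2.25). In dividing CD8 cells alone Eomes had 16 UMIs in KO and 17 in WT, a log2 ratio of 0.51 (-0.57 to 1.58). Of its KO UMIs, 28 lay in 3 conventional CD4 cells. Havcr2 was the other gene above 0, with 66.4 CPM in KO and 58.2 CPM in WT, a log2 ratio of 0.19 whose interval, -0.29 to 0.68, spans 0. Without barcodes that carried markers of other cells, Havcr2 was at -0.42.

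In dividing CD8 cells 7 of 7 measured genes of this list were below 0 and 6 were at least 2-fold lower, beside 8.12% of the 2365 genes measured in that type, of which 44.7% were above 0. Pdcd1 had 217 CPM in KO and 516 CPM in WT CD8 cells. Tox, a factor of exhausted cells, had 31 UMIs in 8 of 41 KO cells and 247 UMIs in 34 of 55 WT cells, a log2 ratio of -2.40 (-2.99 to -1.86). Other CD8 cells gave the same direction for 7 of 7, with a median of -1.30, against -1.25 in dividing ones.

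Co-stimulatory receptors were lower too, with 9 of 9 genes of their list below 0 and 3 at least 2-fold. Tnfrsf4 (OX40) had 382 CPM in KO and 854 CPM in WT, and Tnfrsf9 (4-1BB), which follows recent receptor stimulation, 480 CPM in KO and 1036 CPM in WT. In dividing CD8 cells Tnfrsf4 had 16 UMIs in 5 of 41 KO cells and 211 UMIs in 33 of 55 WT cells, a log2 ratio of -3.13 (-3.96 to -2.39). In dividing Foxp3 cells it had 1069 CPM in KO and 2323 CPM in WT.

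Of the cytokine and receptor genes of T cell growth 9 of 12 were below 0, 4 of them at least 2-fold. Il2rb, the beta chain of the interleukin-2 receptor, had 250.2 CPM in KO and 557 CPM in WT, a log2 ratio of -1.15 (-1.36 to -0.95). Il2ra, its alpha chain, had 98.4 CPM in KO and 162 CPM in WT, and Il7r 126 CPM in KO and 130.1 CPM in WT. The suppressors of cytokine signalling Socs1 and Socs3 were above 0, at 0.59 and 0.47, with an interval for Socs3 that spans 0.

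Of NFAT-linked genes, the calcium-driven arm of receptor signalling, 9 of 12 were below 0, 1 at least 2-fold, and the median was -0.14. Nfat5, whose product responds to osmotic stress, had 100.1 CPM in KO and 229 CPM in WT, a log2 ratio of -1.19. Nfatc1 had 69.9 CPM in KO and 112 CPM in WT, -0.68 (-1.10 to -0.28), and the nuclear receptor gene Nr4a2 86.3 CPM in KO and 162 CPM in WT. The list differed by type. In dividing CD8 cells 6 of 8 were below 0 and 4 at least 2-fold lower, beside 8.12% of 2365 genes. The median there was -0.93, and -0.89 in other CD8 cells. Tox was the only one measured in dividing conventional CD4 cells, at 3.23, and in dividing Foxp3 cells, at 0.83. Of ERK targets and immediate-early genes in all dividing T cells 12 of 15 were below 0 with a median of -0.30. Dusp5, a nuclear ERK phosphatase that ERK induces, had 211 CPM in KO and 296 CPM in WT, and Fos, at 107 CPM in KO and 70.3 CPM in WT, was among the 3 above 0.

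Cytotoxic genes were mostly lower in KO. Of 18 measured, 9 were at least 2-fold lower in KO and 1 at least 2-fold higher, with a median of -0.97. Ccl5 had 613 CPM in KO and 1907 CPM in WT, and Prf1 (perforin) 51.8 CPM in KO and 140 CPM in WT, both lower in dividing CD8 cells as well, at -1.17 and -1.30. Ifng had 87.1 CPM in KO and 92.1 CPM in WT, a log2 ratio of -0.08 (-0.48 to 0.32).

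The granzymes differed from each other. Gzmb had 2264 CPM in KO and 797 CPM in WT dividing CD8 cells, a log2 ratio of 1.51 (1.35 to 1.66), and 0.44 in other CD8 cells. Gzma, another granule protease, had 432 UMIs in 14 of 41 KO CD8 cells and 39 UMIs in 5 of 55 WT CD8 cells, and 33.6% of the KO UMIs came from a single cell. In all dividing T cells Gzmc had 88 UMIs in 18 KO cells and 548 UMIs in 20 WT cells, of which 82.1% came from a single cell. The 11 NK markers, Gzma among them, were all detected in both libraries. They summed to 1050.0 CPM in KO and 708 CPM in WT. In single cells the range was 0 to 234 UMIs per 10000 in KO and 0 to 53.9 in WT. Gzma alone made 728 CPM in KO and 101 CPM in WT, and 39.5% of its KO UMIs came from a single cell. Of the 5 NK markers measured, 2, Gzma and Eomes, were higher in KO and 3 were lower. The lower ones were Klre1, at -1.45, Fcer1g, at -1.56, and Tyrobp, at -0.66. In dividing CD8 cells the NK receptor gene Ncr1 was at 0 in both libraries, and Klrb1c had 2 UMIs in KO and 0 in WT. Other genes of that list were present there. Klre1 had 42 UMIs in 17 of 41 KO and 156 UMIs in 37 of 55 WT dividing CD8 cells, Tyrobp 52 UMIs in KO and 43 in WT, and Fcer1g 26 UMIs in KO and 93 in WT. Of the Tyrobp UMIs, 86.5% in KO and 62.8% in WT came from a single cell.

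Genes of naive, memory and stem-like cells were mixed, with 9 of 14 above 0, 4 of them at least 2-fold, and a median of 0.43. Slamf6, a receptor of stem-like cells, had a UMI in 40 of 98 KO and 24 of 108 WT dividing T cells and a log2 ratio of 1.66 (1.003 to 2.36). Tcf7 had 148 CPM in KO and 60.6 CPM in WT, a log2 ratio of 1.28 (0.88 to 1.70), and S1pr1, the receptor for leaving lymph nodes, 74.2 CPM in KO and 32.3 CPM in WT. They differed by type. In dividing conventional CD4 cells Tcf7 had 366 CPM in KO and 173 CPM in WT and Lef1 83 UMIs in 14 of 21 KO cells and 1 UMI in 1 of 11 WT cells, while in dividing CD8 cells Ccr7 and Bach2 were lower in KO, at -2.05 and -1.76. Other T cells had a median of 1.05 for this list.

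Interferon-response genes differed by member and by type. Ifitm1 had 1576 UMIs in 41 of 98 KO cells, or 1359.8 CPM, and 150 UMIs in 18 of 108 WT cells, or 121 CPM. Its log2 ratio, 3.49 (3.25 to 3.74), was the highest of the genes named by the rule for all dividing T cells, and it was 1.71 in other T cells. Ifitm2 and Ifitm3, neighbours in the same family of membrane proteins, had log2 ratios of 1.499 and 1.15. Isg15, a ubiquitin-like protein induced by type I interferon, had 71.6 CPM in KO and 162 CPM in WT, a log2 ratio of -1.17 (-1.56 to -0.80). Of 19 measured genes 13 were below 0, with a median of -0.13. In dividing CD8 cells 6 of 8 were above 0, with a median of 0.82, and in dividing Foxp3 cells 6 of 7 were below 0, with a median of -1.40.

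Dividing CD8 cells carried much of the Ifitm difference. Ifitm1 had a UMI in 28 of 41 KO CD8 cells and 13 of 55 WT CD8 cells, with 2936 CPM in KO and 211 CPM in WT, and Ifitm2 had 888 CPM in KO and 159 CPM in WT. Lmna (lamin A/C) and Vim (vimentin), structural proteins of the nucleus and cytoskeleton, and the gut homing integrin Itgb7 were also among the 6 genes named as higher there, at 2.53, 1.28 and 1.70. Lower were Gldc, an enzyme of glycine breakdown, with 2 UMIs in KO and 68 in WT, and Creb3l2 and Ier5l. The whole type gave 42 genes (1.78%) at least 2-fold higher and 192 (8.12%) at least 2-fold lower.

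Over all dividing T cells the other named genes higher in KO were Aff3, a nuclear transcription factor, at 2.39, St8sia1, the GD3 ganglioside synthase, at 2.67, and Rasgrp2, an activator of the integrin switch Rap1, at 2.45. Conventional CD4 cells, a larger share of dividing cells in KO, held 181 of the 280 KO UMIs of Aff3 and 45 of the 101 of St8sia1. In that type Aff3 was at 4.65, against 2 WT UMIs. Rgs10, Asap1, Tbc1d4, Irf2bp2 and Trib2 ranged from 1.43 to 1.76. Hspa1a, a heat shock gene that rises on tissue dissociation, had 169 UMIs in 14 KO cells and 55 UMIs in 11 WT cells. Lower were Myo10, at -3.07, the protease inhibitor gene Serpine2, at -3.00, the calmodulin-binding Nrgn, at -2.18, and Frmd5, Slc17a6, Ccrl2 and Tmem163. Frmd5 rested on 2 KO and 12 WT cells.

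Dividing conventional CD4 cells numbered 21 in KO and only 11 in WT, and 947 genes were measured, of which 78 (8.24%) were at least 2-fold higher and 38 (4.01%) at least 2-fold lower in KO and 61.6% were above 0. The G2 and mitosis genes had 16 of 16 above 0 and the S phase genes 7 of 11, and 5 of 9 naive, memory and stem-like genes were at least 2-fold higher. Cd27, a co-stimulatory receptor kept by early memory cells, had 57 UMIs in 12 KO cells and 2 UMIs in 1 WT cell, a log2 ratio of 2.98 (1.06 to 6.06) that was 0.48 when Cd27 was read in cells gated by the cell cycle lists. Inpp4b, a phosphoinositide phosphatase, had 1015 CPM in KO and 272 CPM in WT, a log2 ratio of 1.90 (1.28 to 2.60). Lower in KO were Rora, a factor of type 17 cells, with 232 CPM against 1148 CPM in WT, the interleukin-18 receptor gene Il18r1 with 178 CPM against 815 CPM in WT, the calcium-binding S100a4 and the protease gene Furin. Il17a itself had 4 UMIs in 2 of 21 KO cells and 54 UMIs in 6 of 11 WT cells, 33.3% of them from a single cell.

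Dividing Foxp3 cells, 13 in KO and 21 in WT, gave 1012 measured genes, of which 24 (2.37%) were at least 2-fold higher and 130 (12.8%) at least 2-fold lower in KO and 42.4% were above 0. Of 10 measured S phase genes 10 were above 0, and of 9 G2 and mitosis genes 3 were, with a median of -0.06. Of 11 measured regulatory T genes 10 were below 0 and 3 at least 2-fold lower, with a median of -0.70. In other Foxp3 cells 5 of the 11 were above 0, with a median of -0.01. Foxp3, which chose the type, was itself at -0.62 (-1.21 to -0.06) in dividing ones. With types read in thinned cells, 2 KO and 13 WT dividing Foxp3 cells were left. Ikzf2 (Helios) had 1859 CPM in KO and 3286 CPM in WT, and Il2ra had a log2 ratio of -1.07. Ly6a (Sca-1), which interferon raises, had 354 CPM in KO and 1496 CPM in WT, a log2 ratio of -2.08 (-2.49 to -1.69), and Isg15 and Isg20 were lower as well, at -2.11 and -2.38.

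Ccl5 in these Foxp3 cells had 5 UMIs in 5 KO cells and 356 UMIs in 14 WT cells, 63.5% of them in a single cell. Pdcd1 had 6 UMIs in 2 KO cells and 59 UMIs in 13 WT cells. Higher in KO were Tgfb1, the suppressive cytokine, with 378 CPM in KO and 153 CPM in WT, the chromatin protein Hmgn1 with 349 CPM in KO and 56.8 CPM in WT, and the membrane glycoprotein Emb. Glycolysis and hypoxia genes were spread about 0 in all dividing T cells, 9 of 18 above it with a median of 0.03. In dividing CD8 cells 9 of 12 were above 0 and 0 reached 2-fold.

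**Figure D5:**
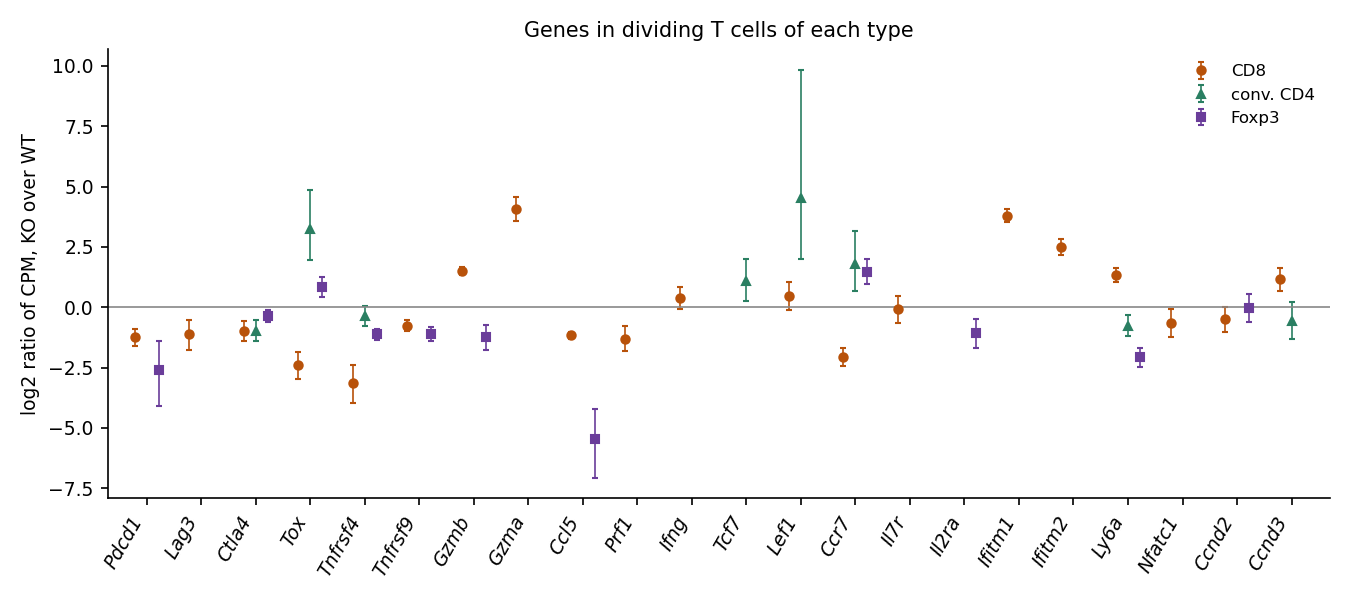
Log2 ratio of CPM, KO over WT, for genes of the lists in dividing CD8, conventional CD4 and Foxp3 cells, with exact 95% counting intervals; a gene is drawn only in types where it was measured. Gzmb is at 1.51 in CD8 and -1.24 in Foxp3 cells, Tox at -2.40 in CD8 and 3.23 in conventional CD4 cells, and Pdcd1 is below 0 where measured.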

How the data were processed

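The UMI counts per gene and barcode were deposited by the authors as 1 matrix per library of 33696 genes. Cell Ranger 8.0.1 made them, per the file headers, while the submitters' processing notes name Cell Ranger 6.0.1, Seurat 4.0.3 and 4.0.4 and mm10. The annotation release is not stated. From these raw counts, T cells were gated and each gene's UMIs were summed over the cells of a library and type and divided by their total. Log2 ratios are KO over WT, with exact conditional intervals. Shares have Clopper-Pearson intervals, differences of shares Newcombe intervals and ratios of shares Katz intervals, all at 95% and for counting error only. The interval code was tested on simulated data. With 1 library for each genotype no p-value was computed. The members and the 25 gene lists were chosen with earlier results of these data known. Named genes were Dusp2, the 12 per direction with the interval bound farthest from 0 (6 within a type, 10 for dividing against other CD8 cells), list ends and preset genes. For the ranked genes, no cell held over 25% of the UMIs of a gene in the higher library, and mitochondrial, ribosomal, haemoglobin, immunoglobulin, T cell receptor, Y-linked and predicted genes were left out. Macrophages used to read free RNA had at least 10 UMIs of Lyz2 and 5 of C1qa, and the tumour cells at least 3 of Rhox5. Some genes that these rules name, and an alternative that needs 1 of them, are not reported here. No doublets were removed: Scrublet (scanpy 1.11.5) called 0 of 12636 KO barcodes, which has not worked, and 128 WT barcodes, so an alternative left out the highest scores, 1277 in KO and 763 in WT. Python 3.11.15, numpy 2.4.6, scipy 1.17.1, pandas 2.3.3 and matplotlib 3.10.9 were used.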

Additional observations from a re-analysis of the deposited data

Results flagged for a closer look

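Several list genes were at least 2-fold higher in KO in dividing T cells of 1 type and at least 2-fold lower in another. The difference between types was not tested, and many of these values rest on few cells. Tox, a factor of exhausted cells, had a log2 ratio of 3.23 in conventional CD4 cells, with 169 UMIs in 15 KO cells and 5 UMIs in 2 WT cells, and -2.40 in CD8 cells, with 31 UMIs in 8 KO cells and 247 UMIs in 34 WT cells. Ccr7, the lymph node homing receptor, was at 1.78 in conventional CD4 cells, 1.48 in Foxp3 cells and -2.05 in CD8 cells, where 54.4% of the KO UMIs came from a single cell.

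Gzmb was at 1.51 in CD8 cells and -1.24 in Foxp3 cells, with 42 UMIs in 4 KO and 162 UMIs in 16 WT Foxp3 cells. Cd27 was at 2.98 in conventional CD4 cells, against 2 WT UMIs, and -1.30 in CD8 cells, with 38 UMIs in KO and 141 in WT. Ly6a was at 1.33 in CD8 cells, with 252 UMIs in KO and 151 in WT, and -2.08 in Foxp3 cells. Areg, the growth factor amphiregulin, was at 1.86 in Foxp3 cells, where 86.4% of the 140 KO UMIs came from a single cell, and -2.92 in CD8 cells, with 5 UMIs in KO and 57 in WT.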

How the results depend on the processing

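No paired analysis was possible because there was 1 library for each genotype. Of 105 alternative values of the shares and summed levels 89 stayed within the counting interval, 15 moved outside it and 1 turned a difference whose interval had left out 0, and of 754 for single genes 679 stayed and 75 moved. The log2 ratio of the share of T cells that divided, KO over WT, was 0.00501 with the cell cycle lists, -0.23 in thinned cells and -0.29 without cells carrying Ccr7 or Lef1, which was chosen after seeing the data. Without barcodes carrying markers of other cells the CD8 share was 9.15 points higher in KO, the log2 ratio of the summed S phase level was 0.23 and that of the G2 and mitosis level 0.45, and 98 genes were at least 2-fold lower. That step can also take out CD8 cells, through Klre1. The S phase log2 ratio was 0.16 with Mki67 and Top2a at 5 or more, 0.17 with the lists, 0.35 scaled by the median ratio and 0.37 with types weighted alike. The G2 and mitosis log2 ratio was 0.28 at 2 or more, 0.23 at 5 or more, 0.24 with the lists, 0.43 scaled by the median ratio and 0.31 with up to 2 Cd79a and Cd79b UMIs, which was chosen after seeing the data. At 100 CPM 13 genes were at least 2-fold higher and 53 lower, and with types weighted alike 75 were higher; the cause of these moves was not tested, except that a higher minimum tests fewer genes. The conventional CD4 share difference ran from 6.09 to 13.7 points over its 12 alternatives. With types read in thinned cells, chosen after seeing the data, the log2 ratio of the share of Foxp3 cells that divided was -2.27, on 2 dividing KO cells.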
